A study of Rattus norvegicus with 21 samples.

Results

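The ATF6 and XBP1 chaperone arm was followed here through 10 genes of the endoplasmic reticulum (ER) stress response, out of 13438 genes with a probe set of their own on the array. The genes were the transcription factors Atf6 and Xbp1, the luminal chaperones Hspa5, Hsp90b1 and Calr, the folding enzyme Pdia4, the co-chaperones Dnajb9 and Dnajc3, the luminal protein Creld2, and Herpud1, a membrane protein of ER-associated degradation. Each gene was read from the probe set that carried only its symbol and had the highest mean over all 21 arrays; the choice used no difference between groups. All 10 were measured well above the array background.

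The cells were INS-1, a rat insulinoma line that serves as a model of the insulin-secreting beta cell, and 7 groups of 3 arrays were measured. The pCTSH#1 line (pCTSH1 in the sample titles) is 1 clone that stably carries a plasmid for the lysosomal protease cathepsin H (CTSH), and it was sampled at 0, 6 and 16 h of cytokine exposure. The pcDNA line carries the empty vector and was sampled at the same times, and untransfected INS1 cells were sampled without cytokines only. The cytokines were recombinant mouse IL-1β at 150 pg/ml together with recombinant rat IFNγ at 5 ng/ml, added after 3 days of culture. No group had 6 or 16 h in culture without cytokines, so exposure and elapsed time cannot be told apart. Because pCTSH#1 is a single clone, its differences from pcDNA cannot be told apart from differences between clones. Replicates are numbered in the labels with no statement that they came from separate cultures. The p-values therefore set differences against the spread of these arrays, which need not be the spread between separate cultures. With 3 arrays a group, the precision of every value is limited.

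Levels are log2 probe set intensities, on which a difference of 1 is a doubling; levels of different genes are not compared, because probe sets differ in how brightly they bind. Array medians lay between 4.88 and 5.08 and the background between 3.88 and 4.17. All 10 measured beta-cell markers were above background on all 21 arrays. Of the markers of other cells, 1 of 5 for leukocytes (Cd68), 0 of 5 for fibroblasts, 0 of 3 for endothelium, 0 of 5 for acinar cells and 1 of 3 for other islet cells were. The last was the glucagon gene Gcg, which read 5.79 to 9.04. Its part in the results was not tested. On part of the arrays the leukocyte marker Lyz2 passed the background (20 of 21, up to 5.09). So did the fibroblast marker Pdgfra (17 of 21, up to 6.16). Besides these, Cd68 and Gcg, no marker of other cells passed it on more than 7 arrays. Ctsh itself read between 3.85 and 5.08 on the 9 pCTSH#1 arrays, against 3.48 to 4.18 on the 9 pcDNA arrays, and passed the background of its array on 6 and 1 of them, so the probe set tells little of the transgene.

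In the unfolded protein response, the chaperone BiP, made from Hspa5, is known to release the ER membrane sensors when unfolded proteins accumulate. ATF6 then travels to the Golgi, where site-1 and site-2 proteases free its transcription factor part, while the nuclease IRE1 splices Xbp1 mRNA so that an active XBP1 protein is made. Both factors are known to raise chaperone, co-chaperone and degradation genes, and beta cells, which make large amounts of proinsulin, depend on this system. The arrays measured mRNA levels, not ATF6 cleavage or Xbp1 splicing.

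Known binding motifs were searched for in the promoters, since genes of 1 arm can be read by different factors. RefSeq promoter windows (build GRCr8, 250 bases before to 50 after the start) were at hand for 9 of the 10 genes, all but Atf6, among 33469 windows in all. Both strands were searched. The ER stress response element (ERSE), searched as CCAAT and CCACG with 9 bases of any kind between them, stood in 6 of the 9, while 22 of all 33469 windows (0.0657%) held it. Its carriers were Hspa5, Hsp90b1, Calr, Dnajc3, Creld2 and Xbp1, and Hsp90b1 held it at 2 places. The 10 genes were chosen as members of this arm, so motif counts against all windows are descriptions and not tests. ERSE-II, searched as ATTGG and CCACG with 1 base between them, was in 1 of the 9 (Herpud1) and in 0.0508% of all windows. The UPRE core TGACGTG, known as an XBP1 and ATF6 motif, was in 1 of the 9 (Hspa5) and in 1.81% of all. The core of the amino acid response element TGATGNAA, known to be bound by ATF4, was in 1 of the 9 (Herpud1) and in 3.98% of all. Pdia4 and Dnajb9 held none of these motifs in full within the window. Counted separately on either strand, CCAAT was in 9 of the 9 (37.5% of all windows) and CCACG in 9 of the 9 (31.6%). None of the full matches overlapped another, and a match is a description of the letters, not a shown binding site. The windows of the 2 genes with the largest rises, Herpud1 and Dnajb9, and of the 2 major luminal chaperones, Hspa5 and Hsp90b1, are given 5′ to 3′ on the strand of the gene, with capitals for matches to ERSE, ERSE-II or the UPRE core. They lie at chr19:10614658-10614957 (minus strand), chr6:67002002-67002301 (minus), chr3:38452766-38453065 (plus) and chr7:23012244-23012543 (minus).
Herpud1: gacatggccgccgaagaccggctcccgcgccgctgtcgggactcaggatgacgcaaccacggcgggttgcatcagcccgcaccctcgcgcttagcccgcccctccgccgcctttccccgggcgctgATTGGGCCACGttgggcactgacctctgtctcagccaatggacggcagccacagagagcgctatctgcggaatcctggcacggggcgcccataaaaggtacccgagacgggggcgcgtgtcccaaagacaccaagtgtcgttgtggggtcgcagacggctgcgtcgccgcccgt
Dnajb9: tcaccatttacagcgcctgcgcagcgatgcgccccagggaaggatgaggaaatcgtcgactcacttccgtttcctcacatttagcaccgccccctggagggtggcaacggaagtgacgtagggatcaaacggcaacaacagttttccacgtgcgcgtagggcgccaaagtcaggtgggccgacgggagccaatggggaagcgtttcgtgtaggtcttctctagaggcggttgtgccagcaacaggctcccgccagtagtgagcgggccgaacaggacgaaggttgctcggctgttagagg
Hspa5: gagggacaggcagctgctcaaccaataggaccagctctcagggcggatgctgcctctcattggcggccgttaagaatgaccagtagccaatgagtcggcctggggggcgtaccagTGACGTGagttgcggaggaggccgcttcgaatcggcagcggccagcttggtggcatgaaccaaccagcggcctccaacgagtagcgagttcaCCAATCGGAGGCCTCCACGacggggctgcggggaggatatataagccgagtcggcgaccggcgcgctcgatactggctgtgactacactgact
Hsp90b1: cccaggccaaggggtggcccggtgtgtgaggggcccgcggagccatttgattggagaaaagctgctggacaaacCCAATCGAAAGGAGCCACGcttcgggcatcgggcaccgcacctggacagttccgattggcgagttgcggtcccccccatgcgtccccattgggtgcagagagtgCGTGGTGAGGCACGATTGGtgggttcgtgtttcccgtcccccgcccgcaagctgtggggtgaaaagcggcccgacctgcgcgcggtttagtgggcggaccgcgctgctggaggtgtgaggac
In Herpud1 the capitals run from -124 to -114 relative to the start, and in Hspa5 the UPRE core runs from -135 to -129 and the ERSE from -43 to -25. In Hsp90b1 the ERSE lies at -176 to -158 on the strand of the gene and at -72 to -54 on the other strand.

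**Figure D1:**
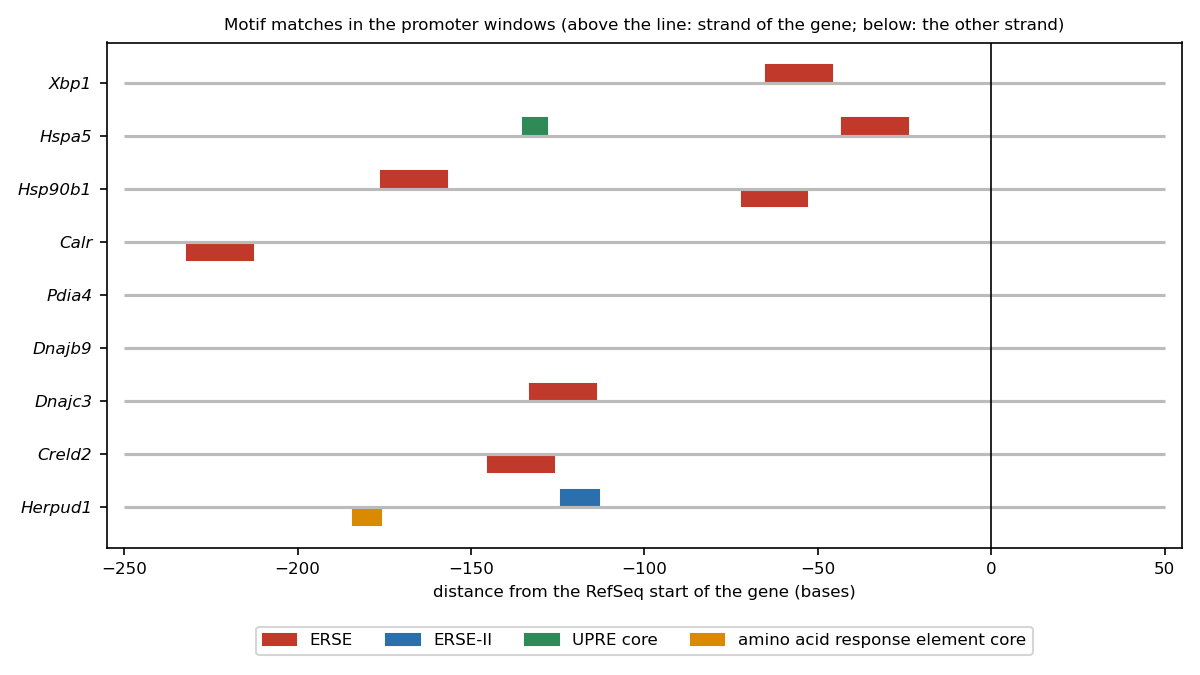
Motif matches in the promoter windows of the 9 genes, by distance in bases from the RefSeq start (horizontal axis); boxes above a line lie on the strand of the gene and boxes below it on the other strand. ERSE boxes stand in 6 windows, the ERSE-II box in that of Herpud1, and the windows of Pdia4 and Dnajb9 hold no box.

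The response to 16 h of cytokines was uneven across the arm. In both lines Herpud1 rose about 6-fold, Dnajb9 more than 3-fold, Atf6 about 2-fold and Xbp1 by over 1.3 times, while the chaperone Hsp90b1 and the co-chaperone Dnajc3 fell, Dnajc3 with calls that other scalings of the arrays lost. Hspa5, the classical reporter of ER stress, was called higher in pCTSH#1 (1.28-fold) and not in pcDNA, and neither outcome held in every alternative. In pCTSH#1, 5 of the 10 genes were called higher and 2 lower at 16 h against 0 h, where calls over all 31042 probe sets made 46.4% (20.8% higher and 25.6% lower). In pcDNA 4 were higher and 2 lower, again against 46.4% of all probe sets (21.3% higher and 25.1% lower). The calls, 7 and 6 of 10, thus stand against a background in which a large share of all probe sets changed. In a fit to the brighter 50% of probe sets alone, which hold all 10 genes, 77.8% were called in pCTSH#1 and 78.1% in pcDNA. Calr was called as well in pCTSH#1 in that fit (limma adjusted p = 0.0359). The median difference of the 10 genes was 0.29 in pCTSH#1, against -0.0031 over all probe sets, and 0.19 in pcDNA, against 0.0010. Calls used an adjusted p below 0.05 (limma, Benjamini-Hochberg over all probe sets). In these bulk samples, fewer cells that express a gene and less of its RNA per cell cannot be told apart.

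**Figure D2:**
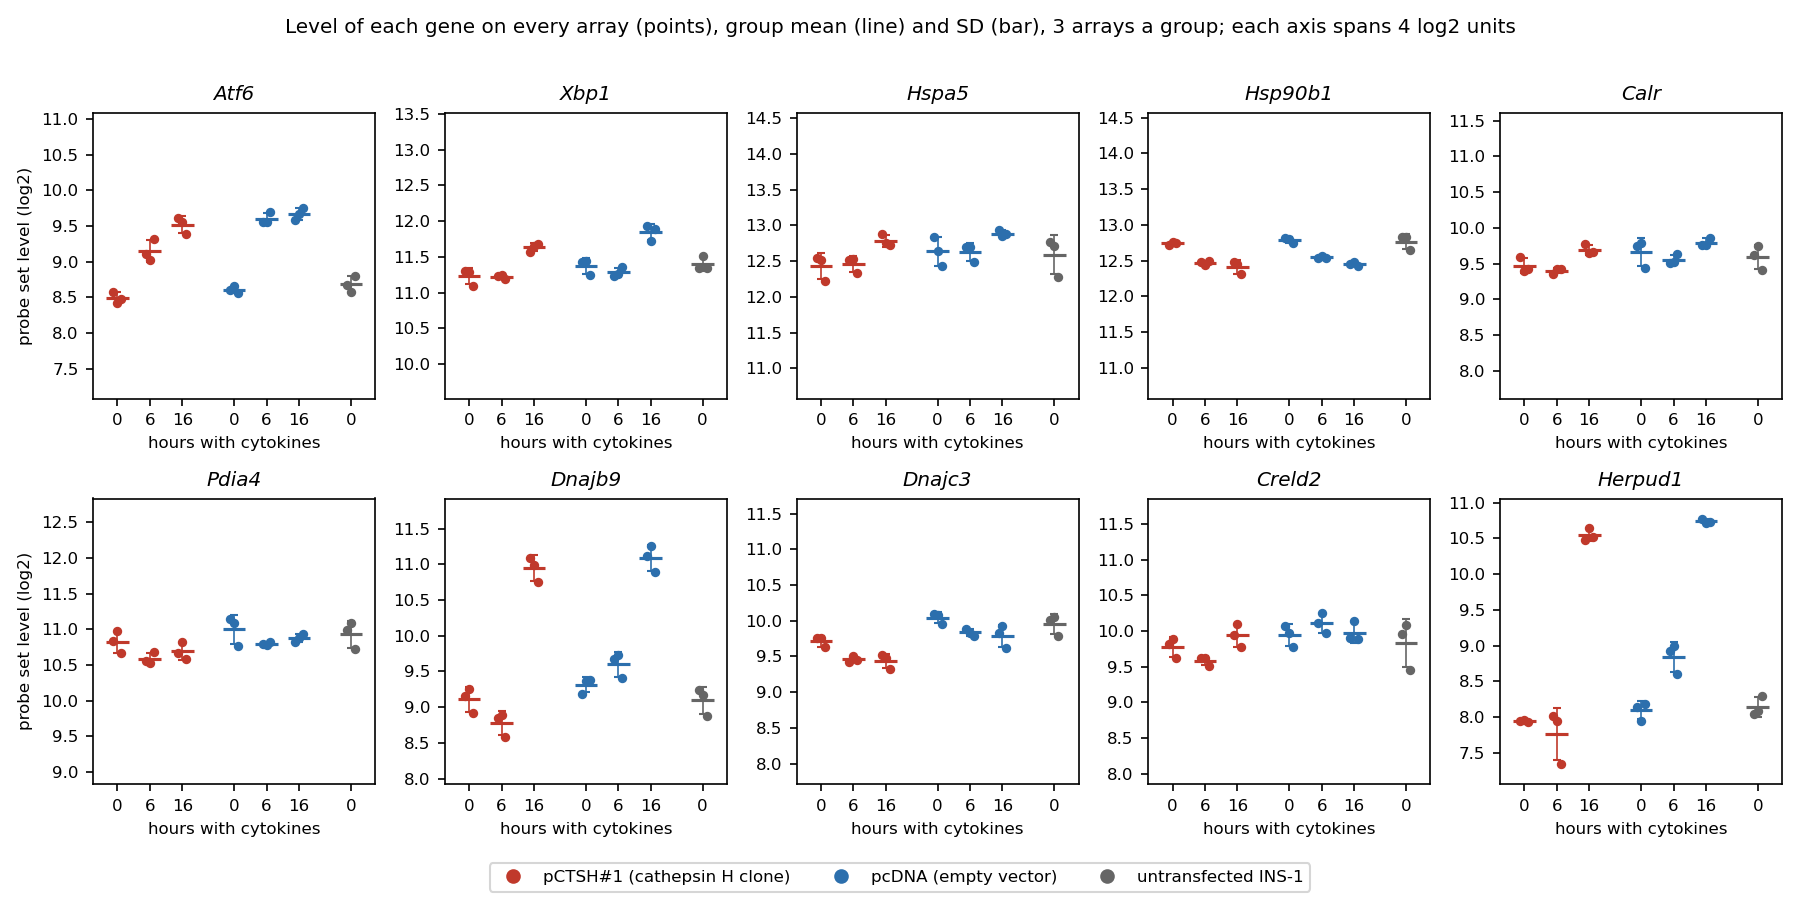
Level of each of the 10 genes (log2, vertical axis, each spanning 4 units) on every array by hours with cytokines, with the group mean (line) and SD (bar) of 3 arrays in pCTSH#1, pcDNA and untransfected INS-1. Herpud1 and Dnajb9 stand far above their other groups at 16 h, and the chaperones move little.

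Herpud1 (Entrez 85430) helps to organise the membrane complex that retrotranslocates misfolded proteins for degradation, and it had the largest response. Its levels in pCTSH#1 were 7.94, 7.95 and 7.93 at 0 h, 8.01, 7.94 and 7.35 at 6 h, and 10.48, 10.65 and 10.53 at 16 h. In pcDNA they were 8.14, 7.95 and 8.19 at 0 h, 8.92, 9.00 and 8.61 at 6 h, and 10.77, 10.72 and 10.73 at 16 h. All 16 h arrays were above all others, and at 6 h the pcDNA arrays were all above their 0 h arrays while those of pCTSH#1 overlapped theirs. Untransfected INS1 cells read 8.04, 8.09 and 8.29, within or near the 0 h range of the transfected lines. At 16 h against 0 h the log2 difference was 2.61 ± 0.14 (SE) in pCTSH#1 (6.10-fold, limma adjusted p = 3.23e-12) and 2.65 ± 0.14 in pcDNA (6.27-fold, adjusted p = 2.47e-12). At 6 h it was -0.18 ± 0.14 in pCTSH#1 (adjusted p = 0.416), and in pcDNA it had risen by 0.75 ± 0.14 (1.68-fold, adjusted p = 0.000209).

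Dnajb9 (Entrez 24908) encodes ERdj4, a BiP co-chaperone that in mouse is known to depend on XBP1. Its pCTSH#1 levels were 9.16, 9.25 and 8.91 at 0 h, 8.85, 8.90 and 8.58 at 6 h, and 11.10, 10.99 and 10.75 at 16 h. In pcDNA the 0 h arrays had 9.19, 9.37 and 9.39, the 6 h arrays 9.67, 9.74 and 9.40, and the 16 h arrays 11.11, 11.26 and 10.89. The 16 h arrays of both lines were above every other array, and those of the lines overlapped each other. The 16 h difference was 1.84 ± 0.13 in pCTSH#1 (3.57-fold, limma adjusted p = 3.99e-10) and 1.77 ± 0.13 in pcDNA (3.42-fold, adjusted p = 6.48e-10). At 6 h the means moved in opposite directions, by -0.33 in pCTSH#1 (95% interval -0.61 to -0.05, adjusted p = 0.0744) and by 0.29 in pcDNA (0.01 to 0.57, adjusted p = 0.119), and neither passed the test. Each was called in some alternatives, among them array weights for both (adjusted p = 0.0366 and 0.0322). Over all 21 arrays Dnajb9 and Herpud1 correlated at Pearson's r = 0.98, a description that holds the 16 h rise of both.

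Of the transcription factors, Atf6 (Entrez 304962) responded earlier. Its pCTSH#1 levels were 8.58, 8.42 and 8.48 at 0 h, 9.11, 9.02 and 9.32 at 6 h, and 9.61, 9.56 and 9.38 at 16 h. The pcDNA arrays had 8.61, 8.66 and 8.56 at 0 h, 9.55, 9.55 and 9.69 at 6 h, and 9.58, 9.67 and 9.75 at 16 h. Every array with cytokines was above every array without in both lines. Atf6 rose at 6 h by 0.66 ± 0.09 in pCTSH#1 (1.58-fold, limma adjusted p = 1.36e-05) and by 0.99 ± 0.09 in pcDNA (1.98-fold, adjusted p = 4.49e-08). The 16 h rises were 1.02 ± 0.09 in pCTSH#1 (2.03-fold) and 1.05 ± 0.09 in pcDNA (2.08-fold). From 6 h onward, the step to 16 h passed the test in pCTSH#1 (0.37 ± 0.09, adjusted p = 0.0027) and not in pcDNA (0.07 ± 0.09, adjusted p = 0.634). Atf6 had a second probe set near background, between 3.86 and 4.58. The mean of both gave smaller 16 h rises of 0.49 in pCTSH#1 and 0.54 in pcDNA, and a 6 to 16 h step of 0.13 in pCTSH#1 that was not called (adjusted p = 0.17).

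Xbp1 (Entrez 289754) stayed near its 0 h level at 6 h and was higher at 16 h. In pCTSH#1 it had 11.31, 11.28 and 11.10 at 0 h, 11.23, 11.25 and 11.18 at 6 h, and 11.57, 11.65 and 11.69 at 16 h. In pcDNA it had 11.43, 11.44 and 11.24 at 0 h, 11.24, 11.25 and 11.36 at 6 h, and 11.93, 11.72 and 11.89 at 16 h. The 16 h arrays lay above all arrays of the same line at the other times. Xbp1 rose at 16 h by 0.41 ± 0.09 in pCTSH#1 (1.33-fold, limma adjusted p = 0.000436) and by 0.47 ± 0.09 in pcDNA (1.39-fold, adjusted p = 8.88e-05). The 6 h differences were -0.01 in pCTSH#1 and -0.09 in pcDNA, with adjusted p = 0.966 and 0.509.

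Hspa5 (Entrez 25617) was among the brightest probe sets, between the 99.3rd and 99.8th percentile on every array, before cytokines as well as after. Its pCTSH#1 levels were 12.55, 12.52 and 12.22 at 0 h, 12.52, 12.53 and 12.33 at 6 h, and 12.88, 12.75 and 12.73 at 16 h. In pcDNA it had 12.84, 12.64 and 12.44 at 0 h, 12.70, 12.70 and 12.48 at 6 h, and 12.93, 12.85 and 12.88 at 16 h. In both lines the 16 h arrays were above all 0 h and 6 h arrays, in pcDNA by a margin far under the spread at 0 h. Hspa5 rose at 16 h in pCTSH#1 by 0.36 ± 0.13 (1.28-fold, limma adjusted p = 0.0263). The call was lost without the third 0 h array (adjusted p = 0.152) or the first 16 h array (adjusted p = 0.0925). In pcDNA the difference was 0.25 (95% interval -0.02 to 0.52, adjusted p = 0.126). It was called with cyclic loess (0.39, adjusted p = 0.0149), with arrays centred on their medians (0.34, adjusted p = 0.042) and without the first 0 h array (0.35, adjusted p = 0.0458), and it was 0.15 (adjusted p = 0.437) without the third. The 16 h responses of the lines differed by 0.11, with adjusted p = 0.944. The low 0 h reading of replicate 3 was shared: it read lowest at 0 h in all 3 lines for 5 of the 10 genes (Hspa5, Pdia4, Dnajc3, Creld2 and Xbp1), which held for 7.14% of all probe sets. What sets this replicate apart was not tested.

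Hsp90b1 (Entrez 362862) encodes GRP94, the HSP90 of the ER lumen, and it fell with cytokines. It had 12.72, 12.76 and 12.74 at 0 h, 12.48, 12.44 and 12.49 at 6 h, and 12.48, 12.44 and 12.30 at 16 h in pCTSH#1. In pcDNA it had 12.82, 12.80 and 12.75 at 0 h, 12.53, 12.56 and 12.54 at 6 h, and 12.46, 12.48 and 12.42 at 16 h. In both lines every array with cytokines was below every array without. Hsp90b1 fell at 16 h by 0.33 ± 0.07 in pCTSH#1 (limma adjusted p = 0.000486) and by 0.34 ± 0.07 in pcDNA (adjusted p = 0.000409). With cyclic loess the differences were smaller, at -0.21 (adjusted p = 0.0185) and -0.20 (adjusted p = 0.024), and still called. The difference was called at 6 h as well, at -0.27 in pCTSH#1 (adjusted p = 0.00608) and -0.24 in pcDNA (adjusted p = 0.0106). Across the 21 arrays its correlation with Atf6 was -0.84, the lowest among all pairs of these genes.

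Dnajc3 (Entrez 63880), which encodes the co-chaperone and PERK inhibitor P58IPK, also fell. It had 9.76, 9.75 and 9.63 at 0 h, 9.43, 9.50 and 9.45 at 6 h, and 9.51, 9.48 and 9.33 at 16 h in pCTSH#1. The pcDNA arrays had 10.10, 10.08 and 9.95 at 0 h, 9.88, 9.83 and 9.79 at 6 h, and 9.83, 9.92 and 9.62 at 16 h. Every array with cytokines was below every 0 h array of its line, and at each time the pCTSH#1 arrays were below the pcDNA arrays. The 16 h difference was -0.27 ± 0.09 in pCTSH#1 (limma adjusted p = 0.0181) and -0.25 ± 0.09 in pcDNA (adjusted p = 0.0267). Both calls were lost with cyclic loess (-0.17 and -0.15, adjusted p = 0.134 and 0.18) and with arrays centred on their medians (-0.18 and -0.16, adjusted p = 0.161 and 0.228). They were also lost when a single array was left out in 3 of 6 cases in each line: in pCTSH#1 without the first or second 0 h array or the third 16 h array (adjusted p = 0.0613, 0.0596 and 0.0916), and in pcDNA without the first or second 0 h array or the third 16 h array (adjusted p = 0.0891, 0.0766 and 0.163).

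The remaining 3 genes were not called at 16 h against 0 h in either line. Calr (Entrez 64202), the lectin chaperone calreticulin, read between 9.36 and 9.86 over all 21 arrays. Its 16 h difference was 0.23 in pCTSH#1 (95% interval 0.02 to 0.43, limma adjusted p = 0.0692) and 0.14 in pcDNA (adjusted p = 0.292). In pCTSH#1 Calr was called higher in 6 of 14 alternatives, with cyclic loess (0.33, adjusted p = 0.00927), centred arrays (0.31, adjusted p = 0.0231) and without the first 0 h array (0.29, adjusted p = 0.0397) among them. In pcDNA its difference was 0.24 with cyclic loess, 0.23 with centred arrays and 0.02 without the third 0 h array, none of them called. Pdia4 (Entrez 116598), the disulfide isomerase ERp72, read between 10.52 and 11.14. It differed at 16 h by -0.14 in pCTSH#1 (95% interval -0.37 to 0.09) and by -0.12 in pcDNA (-0.35 to 0.11), so changes within these bounds remain possible. Creld2 (Entrez 362978), a luminal protein known in mouse to be induced by ER stress, read between 9.46 and 10.25, with 16 h differences of 0.17 in pCTSH#1 and 0.04 in pcDNA (adjusted p = 0.373 and 0.867).

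**Figure D3:**
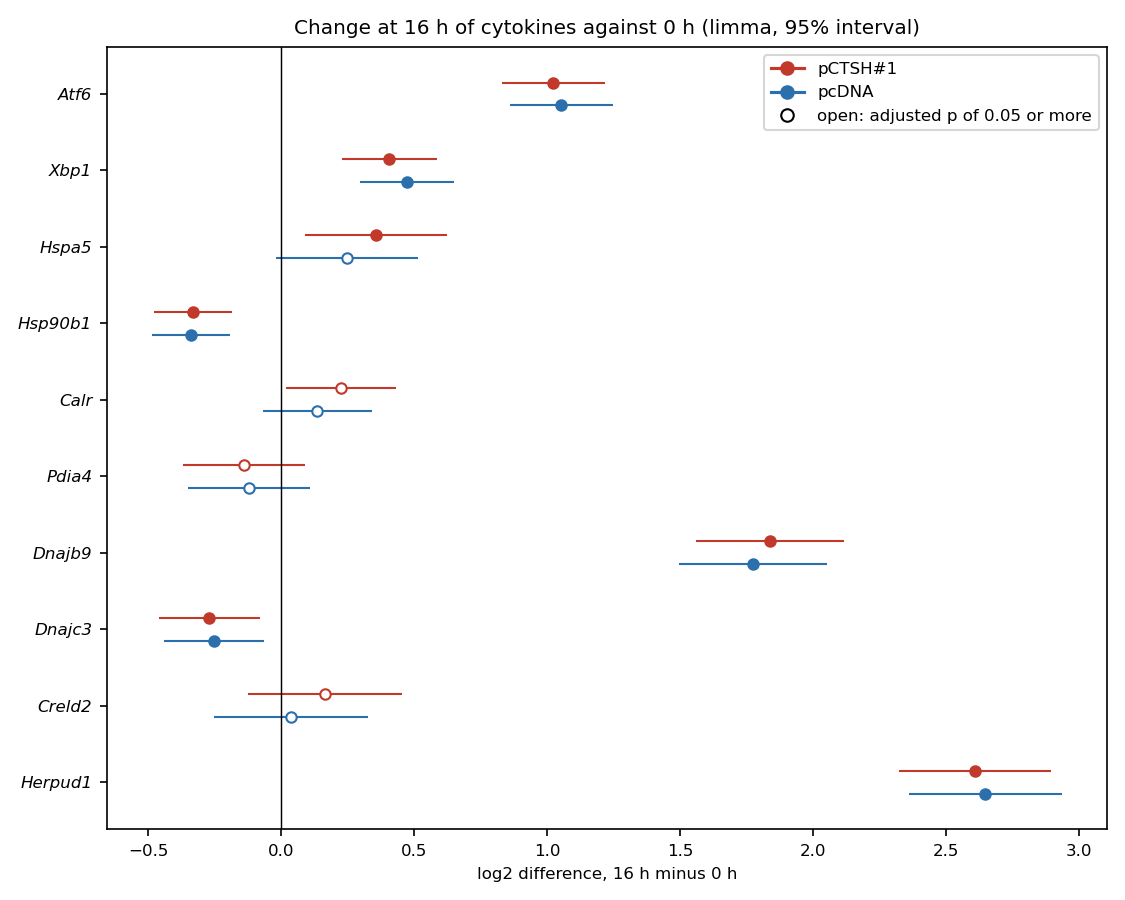
Log2 difference of each gene at 16 h against 0 h (horizontal axis) with its 95% interval, in pCTSH#1 and pcDNA; filled points were called by limma. Herpud1 (2.61 and 2.65), Dnajb9 (1.84 and 1.77), Atf6 (1.02 and 1.05) and Xbp1 (0.41 and 0.47) were called higher in both lines, and Hsp90b1 and Dnajc3 lower.

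The early response was smaller. At 6 h against 0 h, 1 gene was called higher in pCTSH#1 (Atf6) and 2 lower (Hsp90b1 and Dnajc3), where 26.8% of all probe sets were called (10.7% higher and 16.0% lower). In pcDNA 2 were higher (Atf6 and Herpud1) and 1 lower (Hsp90b1), where 30.6% of all were called (12.1% higher and 18.5% lower). Of the brighter 50% of probe sets, fitted alone, 51.6% were called in pCTSH#1 and 57.1% in pcDNA. The Dnajc3 call in pCTSH#1 at 6 h (-0.25 ± 0.09, limma adjusted p = 0.0437) was lost without any 1 of 5 of its 6 arrays, at adjusted p of up to 0.128. That call was also lost with cyclic loess (-0.19, adjusted p = 0.153) and with arrays centred on their medians (-0.265, adjusted p = 0.0697). In pcDNA the difference was -0.21 (adjusted p = 0.0966), called in 4 of 14 alternatives. Between 6 and 16 h, 7 of the 10 genes were called higher in pCTSH#1, where 41.3% of all probe sets were called (19.4% higher), and 3 in pcDNA, where 42.2% were (20.2% higher). In neither line was any of the 10 called lower over that interval, against 21.9% and 22.0% of probe sets. Among the brighter 50%, 72.9% were called over it in pCTSH#1 and 73.9% in pcDNA. The 7 in pCTSH#1 were Herpud1 (2.78 ± 0.14), Dnajb9 (2.17 ± 0.13), Xbp1 (0.42 ± 0.09), Atf6, Creld2 (0.35 ± 0.14, adjusted p = 0.0491), Hspa5 (0.33 ± 0.13, adjusted p = 0.0477) and Calr (0.30 ± 0.10, adjusted p = 0.0195). The count ranged from 4 to 6 as arrays were left out singly: Hspa5 lost its call without any 1 of the 6 arrays, Creld2 without any array other than the third 16 h array, and Calr without the first 6 h or first 16 h array. In pcDNA the 3 were Herpud1 (1.90 ± 0.14), Dnajb9 (1.49 ± 0.13) and Xbp1 (0.56 ± 0.09). Calr missed the threshold there at 0.24 (limma adjusted p = 0.0573) and was called in 6 of 14 alternatives. Hspa5 had 0.26 (adjusted p = 0.12) and was called with cyclic loess (adjusted p = 0.0238) and with the replicate block (adjusted p = 0.0245). The pcDNA mean of Creld2 went the other way, from 10.11 to 9.97.

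The comparison of the lines asks whether cells that carry cathepsin H differ in this arm before and during cytokine exposure. At 6 h 5 of the 10 genes were called lower in pCTSH#1 than in pcDNA and none higher, where 2.86% of all probe sets were called (1.10% lower). These were Herpud1, Dnajb9, Creld2, Atf6 and Dnajc3. Of the brighter 50% of probe sets, fitted alone, 7.02% were called between the lines at 6 h. Before cytokines none was called (1.87% of all probe sets), and at 16 h 1 was, Dnajc3 (3.80% of all, 1.48% lower). All 10 means were lower in pCTSH#1 than in pcDNA at each of the 3 times. Without overlap between the 3 arrays of each line, 1 gene was lower at 0 h, 8 at 6 h and 3 at 16 h, where the background was 7.82%, 11.1% and 8.46% of probe sets. The median difference was -0.17 at 0 h, -0.30 at 6 h and -0.14 at 16 h, against -0.0035, -0.0047 and -0.0070 over all probe sets. Lower medians were not particular to these genes. Other luminal chaperones and folding enzymes, counted below, had -0.133, -0.121 and -0.095 at these times. Translocon and entry genes had -0.119, -0.068 and -0.062, and degradation genes -0.106, -0.071 and -0.068. ER calcium genes had -0.037, 0.036 and 0.031. The comparisons within and between lines share arrays, so they are not independent of each other.

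Herpud1 differed most between the lines at 6 h, at 7.77 ± 0.36 in pCTSH#1 and 8.84 ± 0.21 in pcDNA (SD, n = 3 each), a log2 difference of -1.07 (95% interval -1.36 to -0.79, limma adjusted p = 8.94e-05), or 2.11-fold lower. The third pCTSH#1 array read low, and without it the difference was -0.87 (adjusted p = 0.000177). Dnajb9 was at 8.78 ± 0.17 in pCTSH#1 and 9.60 ± 0.18 in pcDNA, 1.77-fold lower (-0.83, -1.10 to -0.55, adjusted p = 0.000957). Both calls held whichever array was left out. Atf6 was 1.36-fold lower (-0.45, -0.64 to -0.26, adjusted p = 0.00788), a call lost without the second pCTSH#1 array (adjusted p = 0.0655) or the third pcDNA array (adjusted p = 0.0522). Creld2 (-0.53, adjusted p = 0.0446) and Dnajc3 (-0.38, adjusted p = 0.0244) lost their calls without any 1 of the 6 arrays. The count of 5 therefore went to 2 or 3 in every such fit.

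At 0 h Dnajc3 had the largest distance, at -0.33 (95% interval -0.52 to -0.14). It missed the threshold (limma adjusted p = 0.0754) and passed it with the replicate number as a block (adjusted p = 0.0161). At 6 h its difference of -0.38 and at 16 h of -0.35 (adjusted p = 0.0351) were of like size. The 16 h call was lost without the second or the third pCTSH#1 array (adjusted p = 0.0655 and 0.136) or the first or second pcDNA array (adjusted p = 0.118 and 0.166). Against untransfected cells Dnajc3 was -0.24 in pCTSH#1 (adjusted p = 0.249). Xbp1 at 16 h was lower in all pCTSH#1 arrays than in all pcDNA arrays, with a difference of -0.21 (-0.39 to -0.03, adjusted p = 0.221) that was not called. For Hspa5 the interval at 6 h was -0.44 to 0.10, for Hsp90b1 -0.22 to 0.07 and for Calr -0.36 to 0.05. Differences within these bounds remain possible for these chaperones.

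**Figure D4:**
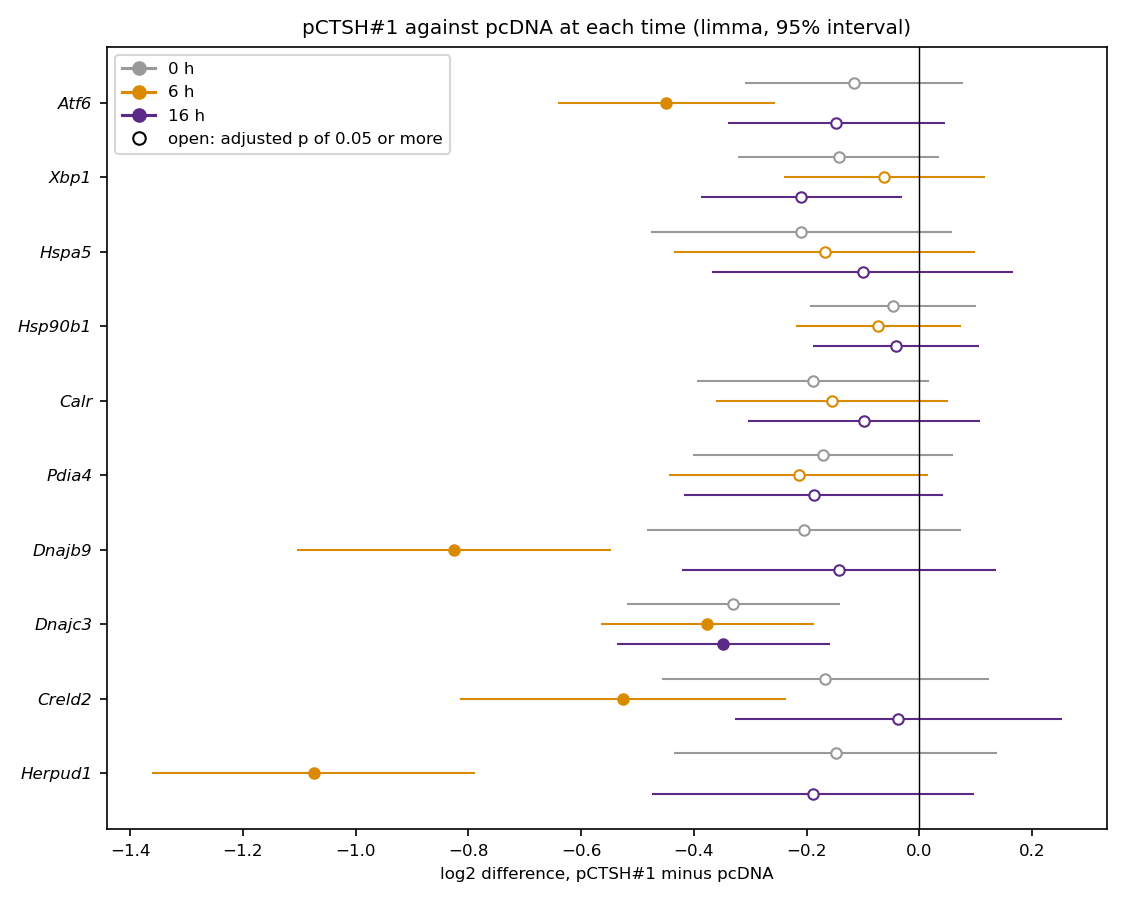
Log2 difference of each gene, pCTSH#1 minus pcDNA (horizontal axis), with its 95% interval at 0, 6 and 16 h; filled points were called by limma. Every point lies below 0, and those furthest below are Herpud1 (-1.07) and Dnajb9 (-0.83) at 6 h.

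Whether the cytokine response itself differed between the lines was tested as the difference of the changes from 0 h. For none of the 10 genes was it called at 6 h or at 16 h, where 0.103% and 0.213% of all probe sets were called. At 6 h Herpud1 was furthest from 0, at -0.93 ± 0.19 (95% interval -1.33 to -0.52, limma adjusted p = 0.0944), followed by Dnajb9 at -0.62 ± 0.19 (-1.01 to -0.23, adjusted p = 0.479). The unadjusted intervals of these 2 lie below 0, but the adjusted values pass no threshold. At 16 h the differences were -0.04 for Herpud1 and 0.06 for Dnajb9 (adjusted p = 0.984 and 0.973).

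Each transfected line was compared at 0 h against untransfected INS1 cells. For pCTSH#1, transfection, the cathepsin H plasmid and the single clone cannot be told apart in this comparison. Of the 10 means, 9 were lower in pCTSH#1 than in INS1, and 3 were lower in pcDNA. In pCTSH#1 none of the 10 genes was called (2.57% of all probe sets), and in pcDNA none was (0.00966%). The median difference of the 10 was -0.14 in pCTSH#1 and 0.06 in pcDNA, against 0.0014 and 0.0071 over all probe sets.

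Other genes of the ER were counted by role, from lists chosen with earlier results of these data known. Their 16 h counts stand against calls for 20.8% of all probe sets higher and 25.6% lower in pCTSH#1, and 21.3% higher and 25.1% lower in pcDNA. Of the brighter 50% of probe sets, fitted alone, 77.8% were called in pCTSH#1 and 78.1% in pcDNA. Of 22 other luminal chaperones and folding enzymes, 3 were called higher and 12 lower at 16 h in pCTSH#1, and 2 higher and 11 lower in pcDNA. Their median differences were -0.31 and -0.33, against 0.29 and 0.19 for the 10 genes. Uggt1, which reglucosylates unfolded glycoproteins, rose by 1.19 ± 0.15 in pCTSH#1 and 1.21 ± 0.15 in pcDNA. The disulfide reductase Dnajc10 fell by 1.01 ± 0.10 and 1.17 ± 0.10, and the BiP cofactor Sdf2l1 fell by 0.83 ± 0.13 in both. Of the classical co-targets, Pdia6 fell by 0.41 ± 0.08 in pCTSH#1 and 0.34 ± 0.08 in pcDNA (-0.22 with cyclic loess, still called), and Pdia3 (0.13 and 0.09) and Manf (-0.09 and 0.03) were not called in either line. Hyou1, which read near background, was lower in pCTSH#1 (-0.70 ± 0.20, limma adjusted p = 0.00623) and not called in pcDNA (-0.32 ± 0.20, adjusted p = 0.212). The first call was lost without the first 16 h array (-0.50, adjusted p = 0.0528), and in pcDNA Hyou1 was called without the third 0 h array (-0.58, adjusted p = 0.0159) and was -0.08 without the first. None of the 22 was called between the lines at 0, 6 or 16 h, where 1.87%, 2.86% and 3.80% of all probe sets were.

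Of the genes of ER-associated degradation besides Herpud1, 17 of 20 listed were measured. At 16 h 7 were called higher and 6 lower in each line, where 46.4% of all probe sets were called. Sel1l, the partner of the ubiquitin ligase HRD1, rose by 2.24 ± 0.10 in pCTSH#1 and 2.46 ± 0.10 in pcDNA. The ubiquitin-conjugating enzyme Ube2j1 rose by 1.64 ± 0.11 and 1.75 ± 0.11, and the membrane adaptor Selenos by 0.96 ± 0.09 and 0.88 ± 0.09. Edem2, which starts mannose trimming of misfolded glycoproteins, fell by 1.77 ± 0.10 in pCTSH#1 and 1.80 ± 0.10 in pcDNA. Of the translocon and entry machinery, 17 of 26 genes were lower and 3 higher in pCTSH#1, and 18 lower and 4 higher in pcDNA. In that list Dad1, an oligosaccharyltransferase subunit, fell by 1.03 ± 0.08 and 1.18 ± 0.08, and the catalytic subunit Stt3a rose by 1.22 ± 0.11 and 0.99 ± 0.11. The mean over the probe sets of Stt3a gave 0.42 and 0.50, still called. Of 21 measured ER to Golgi transport genes, 7 were higher and 8 lower in pCTSH#1, and 3 higher and 8 lower in pcDNA, where the background was 46.4% in each line.

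Of 14 measured stress sensors and ATF6 processing genes, 7 were higher and 6 lower at 16 h in pCTSH#1, and 5 higher and 5 lower in pcDNA. Of all probe sets, 46.4% were called at 16 h in each line. The site-1 protease gene Mbtps1 fell by 0.41 ± 0.08 in pCTSH#1 and 0.26 ± 0.08 in pcDNA. The pcDNA call was lost with cyclic loess (-0.17, adjusted p = 0.119) and with arrays centred on their medians (-0.17, adjusted p = 0.122). Ern1, which encodes IRE1, and the site-2 protease gene Mbtps2 were not analysed here. The PERK gene Eif2ak3 rose by 1.80 ± 0.15 in pCTSH#1 and 2.26 ± 0.15 in pcDNA. At 6 h Eif2ak3 was lower in pCTSH#1 than in pcDNA by a log2 difference of -0.92 ± 0.15 (limma adjusted p = 0.000791). Of 14 ER calcium genes, 5 were higher and 6 lower at 16 h in pCTSH#1, and 5 higher and 7 lower in pcDNA, against the same 46.4%. Among them Atp2a2, the SERCA2 pump that fills the ER with calcium, fell by 0.59 ± 0.08 in pCTSH#1 and 0.52 ± 0.08 in pcDNA.

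The PERK and ATF4 arm, the other transcriptional branch of ER stress, had larger median differences at 16 h than the 10 chaperone arm genes. Both sets of genes were chosen with earlier results of these data known, so the contrast is a description and not a test. All 14 genes listed for the PERK and ATF4 arm were called higher at 16 h in both lines. Their medians were 2.36 in pCTSH#1 and 2.32 in pcDNA. Of all probe sets, 20.8% were called higher in pCTSH#1 and 21.3% in pcDNA. Of the brighter 50% of probe sets, fitted alone, 77.8% and 78.1% were called in either direction. Atf4 rose by 2.20 ± 0.09 and 2.06 ± 0.09, and Ddit3, which encodes CHOP, by 4.61 ± 0.10 and 4.82 ± 0.10. Between the lines at 6 h, 2.86% of all probe sets were called (1.10% lower). Of the 14 genes, 7 were then lower in pCTSH#1 than in pcDNA and none higher, with a median of -0.50. These counts stand beside the 5 of 10 for the chaperone arm in the same arrays, and whether the 2 arms are linked was not tested.

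**Figure D5:**
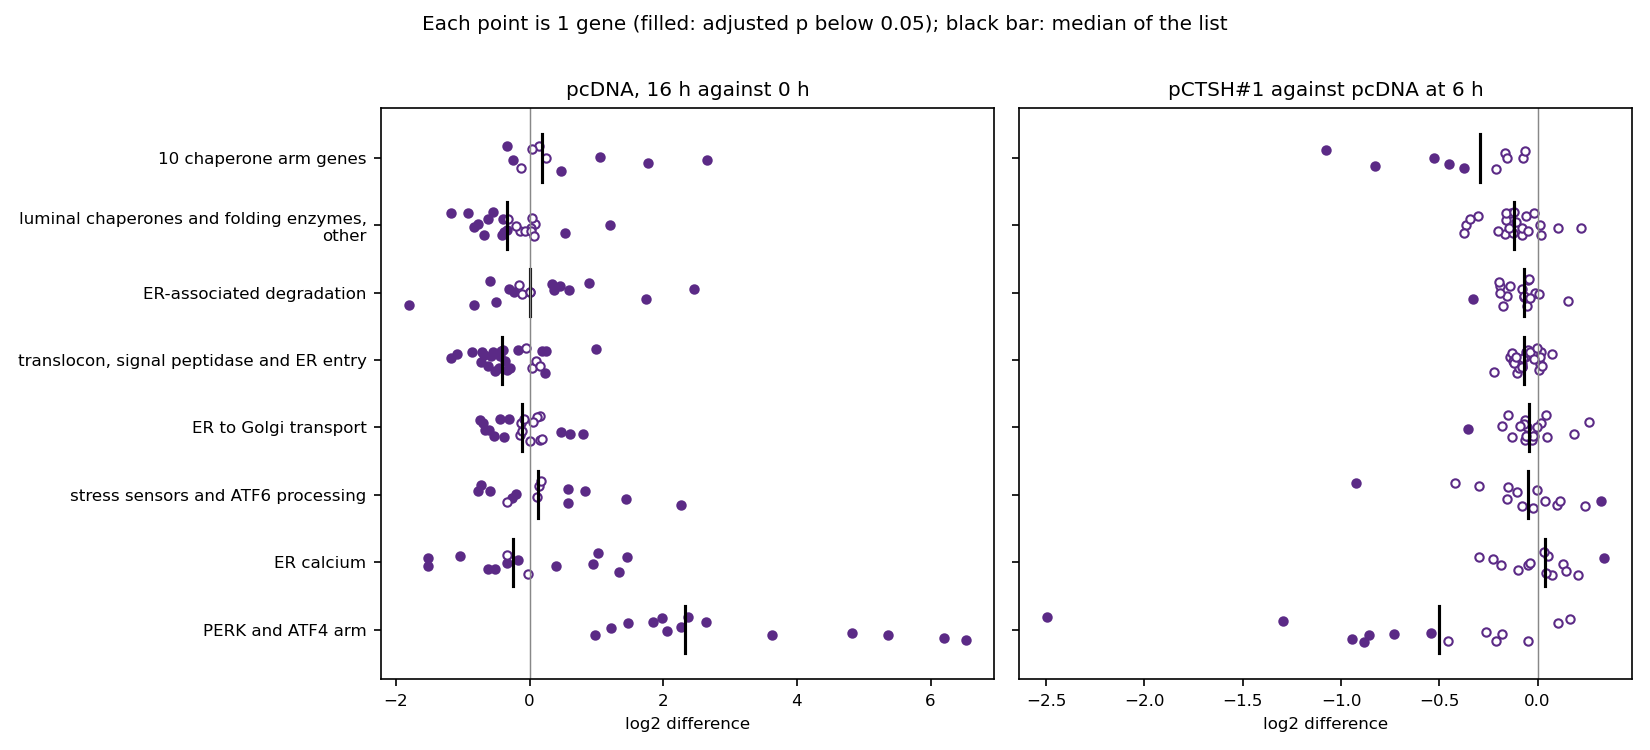
Log2 difference of each gene (points, filled where called by limma) in the 10 chaperone arm genes and the 7 other lists, for pcDNA at 16 h against 0 h (left) and pCTSH#1 against pcDNA at 6 h (right); black bars are medians. The median of the PERK and ATF4 arm is 2.32 on the left and -0.50 on the right, and those of the other lists lie nearer to 0.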

How the data were processed

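RNA from 21 samples of INS-1 cells was measured on Affymetrix arrays, 1 per sample, in 7 groups of 3 taken from the sample titles. The authors deposited log2 intensities per probe set, made with RMA, with affy and limma, per the submitters' processing notes, which give no versions. They were used as deposited, with no filter on dim values. RMA scales arrays to 1 distribution, so a shift shared by most genes would not be seen. The table has 31137 probe sets; without its 95 array controls, 31042 entered the tests. Symbols came from the platform annotation, and a probe set with several symbols was not named. Background was the highest nonspecific control probe set of an array.

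Groups were compared with limma 3.58.1 under R 4.3.3 (lmFit and eBayes at default settings), 1 model of 7 group means over 21 arrays. The 13 comparisons were drawn from it; p-values were two-sided and adjusted by Benjamini-Hochberg within each over all 31042 probe sets, with a threshold of 0.05. The ± values give the standard error from limma, except where marked SD. The method was tested on simulated data. Promoters are those of RefSeq (GRCr8), searched by exact letters in Python 3.11.15, and plots were made with matplotlib 3.10.9.

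The 10 genes, the lists, the alternatives and the tests were chosen with earlier results of these data known. All 10 are described. Of each other list at most 4 genes could be named, those with the largest called change in pcDNA at 16 h without overlap of arrays, besides Hyou1, Pdia3, Pdia6, Manf, Ern1, Mbtps1, Mbtps2, Atp2a2, Atf4 and Ddit3. For Hspa5 and Xbp1 the 5 genes with the highest Pearson's r over all arrays could be named, among 3594 genes above background on every array with group means that span at least 1 log2 unit. Whether replicate numbers pair arrays was examined in the residuals. The 3 correlations of equal numbers all passed 0.1 for pCTSH#1 with pcDNA at 0 h (0.106 to 0.239) and for pcDNA with INS1 (0.130 to 0.149), and for no other of the 21 pairs of groups. The closest array in another group carried the same number in 79 of 126 cases, against 42 if numbers meant nothing, which hints at pairing that the labels do not give. A block by replicate number is therefore printed for these comparisons where it changes a call. Alternatives, changed singly, were that block, array weights, fitting the compared arrays only, cyclic loess normalization, centring each array on its median, eBayes with its trend and robust options, the brighter 50% of probe sets alone, averaging the probe sets of a gene, and leaving out each array.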

Additional observations from a re-analysis of the deposited data

Results flagged for a closer look

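For 3 genes of the PERK and ATF4 arm, set beside the chaperone genes, the 6 h cytokine response differed between the lines by a test of the difference itself (limma, adjusted over all probe sets). The difference of the 6 h changes, pCTSH#1 minus pcDNA, was -2.57 for Chac1 (adjusted p = 4.55e-07), a glutathione-degrading enzyme. It came from 6 h changes of 0.09 in pCTSH#1 and 2.66 in pcDNA. For Ddit3 it was -0.91 (adjusted p = 0.00501), from changes of 1.04 and 1.95. For Ddit4, an inhibitor of mTORC1 signalling, it was -0.69 (adjusted p = 0.0449), from -0.97 and -0.28. None of the 10 chaperone arm genes passed this test. The size for Herpud1, -0.93 (adjusted p = 0.0944), lay between those of Chac1 and Ddit3, and it passed with array weights (adjusted p = 0.0439) and with the trend and robust settings (adjusted p = 0.00917).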

How the results depend on the processing

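Of 130 results for the 10 genes, 35 were called; 23 of these were called in every alternative, 12 were lost in some, and 11 of the other 95 were called in some, with no called direction reversed. The rises of Herpud1 and Dnajb9 at 16 h, and their lower 6 h level in pCTSH#1, were called in every alternative. With array weights 5 genes were called at 6 h in pCTSH#1 and 5 in pcDNA (in place of 3 each), where 30.6% and 34.5% of all probe sets were. With a replicate block 5 were called in pcDNA at 6 h, where 31.3% of all were. With cyclic loess 5 were called in pcDNA between 6 and 16 h (in place of 3), where 42.3% of all probe sets were. Between the lines at 0 h, 1 (Dnajc3) was called in place of 0 with the brighter 50% of probe sets and the mean of all probe sets. The same held with array weights, the replicate block, and the trend and robust settings. These settings called 2.07% to 4.32% of the probe sets or genes fitted. Centring arrays on their medians left 3 at 6 h (in place of 5) and 0 at 16 h (in place of 1). With that setting 2.58% and 3.47% of all probe sets were called. Fitting only the arrays compared left 0 at 16 h, where 0.62% of all were called. For the difference of 6 h responses, array weights and the trend and robust settings each called 1 (Herpud1, limma adjusted p = 0.0439 and 0.00917). They called 0.21% and 0.18% of all probe sets. Leaving out single arrays gave 4 to 6 in pCTSH#1 between 6 and 16 h (in place of 7), 2 to 3 between the lines at 6 h and 0 to 1 at 16 h. Calls over all probe sets were then 11727 to 12345 (in place of 12815), 531 to 646 (887) and 757 to 1250 (1181). With the block, Hspa5 was called in pcDNA at 16 h (0.25, adjusted p = 0.0273), and both 6 h changes of Dnajb9 were called (-0.33 in pCTSH#1, adjusted p = 0.0106, and 0.29 in pcDNA, adjusted p = 0.0229). Dnajc3 lost its 16 h calls with only the arrays compared (adjusted p = 0.0501 in pCTSH#1 and 0.0952 in pcDNA). The ER to Golgi gene Sar1a, called lower, reversed in sign with the mean of its probe sets. It was 0.0012 in pCTSH#1 at 16 h against 0 h (limma adjusted p = 0.992). At 16 h against 6 h it was 0.15 in pCTSH#1 (adjusted p = 0.135) and 0.20 in pcDNA (adjusted p = 0.0419), where it was called higher. Background counts moved too. With only the arrays compared, 284 probe sets differed between the lines at 0 h in place of 582, 193 at 16 h in place of 1181, 30 in the 16 h response in place of 66, 366 between pCTSH#1 and INS1 in place of 797, and 0 between pcDNA and INS1 in place of 3. Array weights gave 1737 between the lines at 6 h in place of 887, and 65 in the 6 h response in place of 32. The trend and robust settings gave 55 in the 6 h response, 120 in the 16 h response and 5 between pcDNA and INS1, and the brighter 50% gave 110 and 1 for the last 2. The lowest counts with an array left out were 384 at 0 h, 531 at 6 h, 757 at 16 h, 17 and 36 for the responses, and 2 for pcDNA against INS1. The share of calls that were higher was 51.9% with cyclic loess against 40.1% at 6 h in pCTSH#1, 51.6% against 39.6% in pcDNA, and 57.9% with centring against 47.0% in pCTSH#1 between 6 and 16 h. The causes were not tested.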

Other observations

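Among 3594 genes above background on every array with group means that span at least 1 log2 unit, those whose levels ran most alike with Xbp1 over the 21 arrays were Hspa9, the mitochondrial HSP70 (Pearson's r = 0.95), the autophagy gene Gabarapl1 (0.94), the deubiquitinase gene Otud7b (0.94), the acetyltransferase complex gene Kat14 (0.94) and Sqstm1, the autophagy receptor p62 (0.94). For Hspa5, among the same genes, they were the serine protease gene Htra3 (0.81), Selenos (0.80), the kinase gene Camk2d (0.79), Sqstm1 (0.78) and the splicing kinase gene Clk1 (0.78). Calr, whose group means span less, had 0.80 with Hspa5. The 21 arrays share lines and times, so these are descriptions of levels over 7 groups. Sqstm1 stood in both lists, with mean levels of 11.54, 11.41 and 12.45 in pCTSH#1 and 11.64, 11.62 and 12.52 in pcDNA at 0, 6 and 16 h.

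Outside the 10 genes, 15 gene symbols had an ERSE match in their RefSeq promoter window and 11 of them were measured. At 16 h in pcDNA 1 of the 11 was called higher and 2 lower, where 21.3% of all probe sets were higher and 25.1% lower. These were named after their values were seen: Zfand2a, a heat shock and arsenite inducible proteasome-associated gene, rose by 2.66 ± 0.09 (limma adjusted p = 4.31e-15), Ppm1l fell by 1.59 ± 0.11 and Birc5, the mitotic gene survivin, fell by 1.27 ± 0.09. In pCTSH#1 the same genes differed by 2.47, -1.44 and -1.18, and Canx, the lectin chaperone calnexin, was also lower there (-0.31 ± 0.09, adjusted p = 0.00792), against -0.14 in pcDNA (adjusted p = 0.233).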
